A study of Caenorhabditis elegans with 6 samples.

Results

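Fatty acids enter metabolism as acyl-CoA esters, are lengthened and desaturated for membranes and signals, and are broken down by β-oxidation. In Caenorhabditis elegans these steps are run by large gene families, and much of this metabolism takes place in the intestine, the tissue that descends from the endoderm daughter of the EMS blastomere. EMR-1, the emerin of worms, sits in the inner nuclear membrane, and chromatin near it lies at the nuclear periphery, which in many animal cells is rich in silent chromatin. The genes described here are the protein-coding genes of the WBcel235 (ce11) annotation named acs, acdh, elo, fat or lbp with a number: 22 acyl-CoA synthetases, 13 acyl-CoA dehydrogenases, 9 fatty acid elongases, 7 fatty acid desaturases and 9 lipid-binding proteins. They are 60 of 19294 protein-coding genes that have a measured site. Genes were taken by name, but the families were chosen with earlier results of these data known.

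The measurements come from DamID, in which a DNA adenine methyltransferase (Dam) fused to a protein marks GATC sites close to that protein, and marked fragments are amplified and sequenced. One group of 3 libraries came from embryos of strain BN1470 carrying Dam::EMR-1. The other group of 3 libraries came from strain BN1465 carrying GFP::Dam, a fusion without EMR-1 that reports how open each site is to Dam. All 6 libraries are labelled wild type and EMS, the embryonic blastomere that gives rise to endoderm and mesoderm. Because each construct sits in its own strain, effects of strain and of construct cannot be told apart. Animals of both groups were kept at 20 °C on bacteria lacking Dam methylation, embryos were taken by bleaching 4000 adults per strain after 72 h, and each DamID reaction used 200 ng of genomic DNA and 24 PCR cycles. The assay reads genomic DNA, so the labelled cell type cannot be checked by the expression of marker genes. Nothing in the labels says whether the replicates were separate cultures, and p-values here reflect only how much these libraries vary.

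The libraries held between 15719682 and 22407988 reads, with 3 Dam::EMR-1 libraries of 22407988, 15719682 and 17358287 reads and 3 GFP::Dam libraries of 17535839, 16278015 and 17474703. The median GATC site had 164 reads over the 6 libraries. The deposited log2 ratios, 1 per replicate number, were read as Dam::EMR-1 over GFP::Dam from the naming of the tables, since the headers do not state the order; in the opposite order every sign below would turn. Per the deposited values, 1 read was added to each library's count at a site and a constant of 0.59, 0.34 or 0.16 was then subtracted from the ratios of replicates 1, 2 and 3. A site without reads in both libraries of a replicate therefore has a ratio of minus that constant, and thinly read sites are drawn towards it. The locus of emr-1 itself had a log2 ratio of -0.15 ± 1.23 (limma adjusted p = 0.88), and med-1, with 1 site, had 1.21 ± 0.52 (limma adjusted p = 0.23); neither was called.

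A gene's log2 ratio is the mean over the GATC sites in its body and within 500 bp of it, and means are given ± SD over 3 ratios. A gene was called enriched (ratio above 0) or depleted (ratio below 0) at a limma adjusted p under 0.05, with p-values adjusted over all 18651 protein-coding genes that had at least 60 reads. Of the 60 fatty acid genes 59 passed that minimum, on 2 to 23 sites each and 494 sites in all. The gene left out was fat-2, the desaturase that makes linoleic acid, with 1 site and 11 reads. Levels in single libraries are given in RPM, the reads of a gene's sites scaled to 1000000 reads per library. All fat-2 reads were in the Dam::EMR-1 libraries, at 0.268, 0.127 and 0.173 RPM, and its 3 log2 ratios were 2.22, 1.25 and 1.84. Among the tested genes lbp-7 had the fewest reads, 93, and acs-22 the most, 32294.

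Most fatty acid genes lay on the GFP::Dam side, with 40 of the 59 ratios below 0 (67.8%, background 46.9%). By limma 25 were depleted, 42.4% against a background of 27.2% of all tested genes, and 8 were enriched, 13.6% against a background of 30.3%. The other 26 passed in neither direction, with ratios between -1.94 and 1.48. The median log2 ratio of the fatty acid genes was -1.66, and that of all tested genes was 0.31. The fatty acid median was -0.87 with a pseudocount of 5 in place of 1 and -2.75 with 0.1, and without replicate 1 the enriched genes numbered 5. In the 3 replicates taken singly the medians were -1.65, -1.80 and -1.58, beside 0.29, 0.31 and 0.09 for all genes. The sign was the same in all 3 replicates for 43 of the 59 genes, close to the share of all tested genes, 13751 of 18651. On reads recovered per library and summed per gene, edgeR called 3 fatty acid genes enriched and 12 depleted with the replicate block (backgrounds 11.3% and 14.3%) and again 3 and 12 without it (backgrounds 17.0% and 16.9%). DESeq2 called 8 and 25 (backgrounds 27.3% and 29.5%), of which fat-1 and acs-6 among the enriched and fat-4, elo-5 and acs-4 among the depleted were not called by limma. These are counts and medians of a family list and carry no test of the list as a whole.

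The calls of each family are set beside the 27.2% depleted and 30.3% enriched of all tested genes. The lipid-binding proteins had the lowest median log2 ratio, -3.49, with 7 of 9 genes depleted and none enriched. The acyl-CoA dehydrogenases followed at -3.42, with 7 of 13 depleted and 2 enriched. The desaturases had a median of -1.18, with 2 of 6 depleted and 1 enriched, and the elongases -1.12, with 2 of 9 depleted and none enriched. The acyl-CoA synthetases spanned the widest range, from -6.50 to 4.82 with a median of -0.60, and held 5 of the 8 enriched genes beside 7 depleted ones. The depleted shares of synthetases (31.8%), desaturases (33.3%) and elongases (22.2%) were near that of all tested genes. Those of lipid-binding proteins (77.8%) and acyl-CoA dehydrogenases (53.8%) were higher, but some of these depleted genes are neighbours. They are lbp-1, lbp-2 and lbp-3, then lbp-5 and lbp-6, and acdh-7 and acdh-10, which share 3 sites. Differences between families were not tested.

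**Figure D1:**
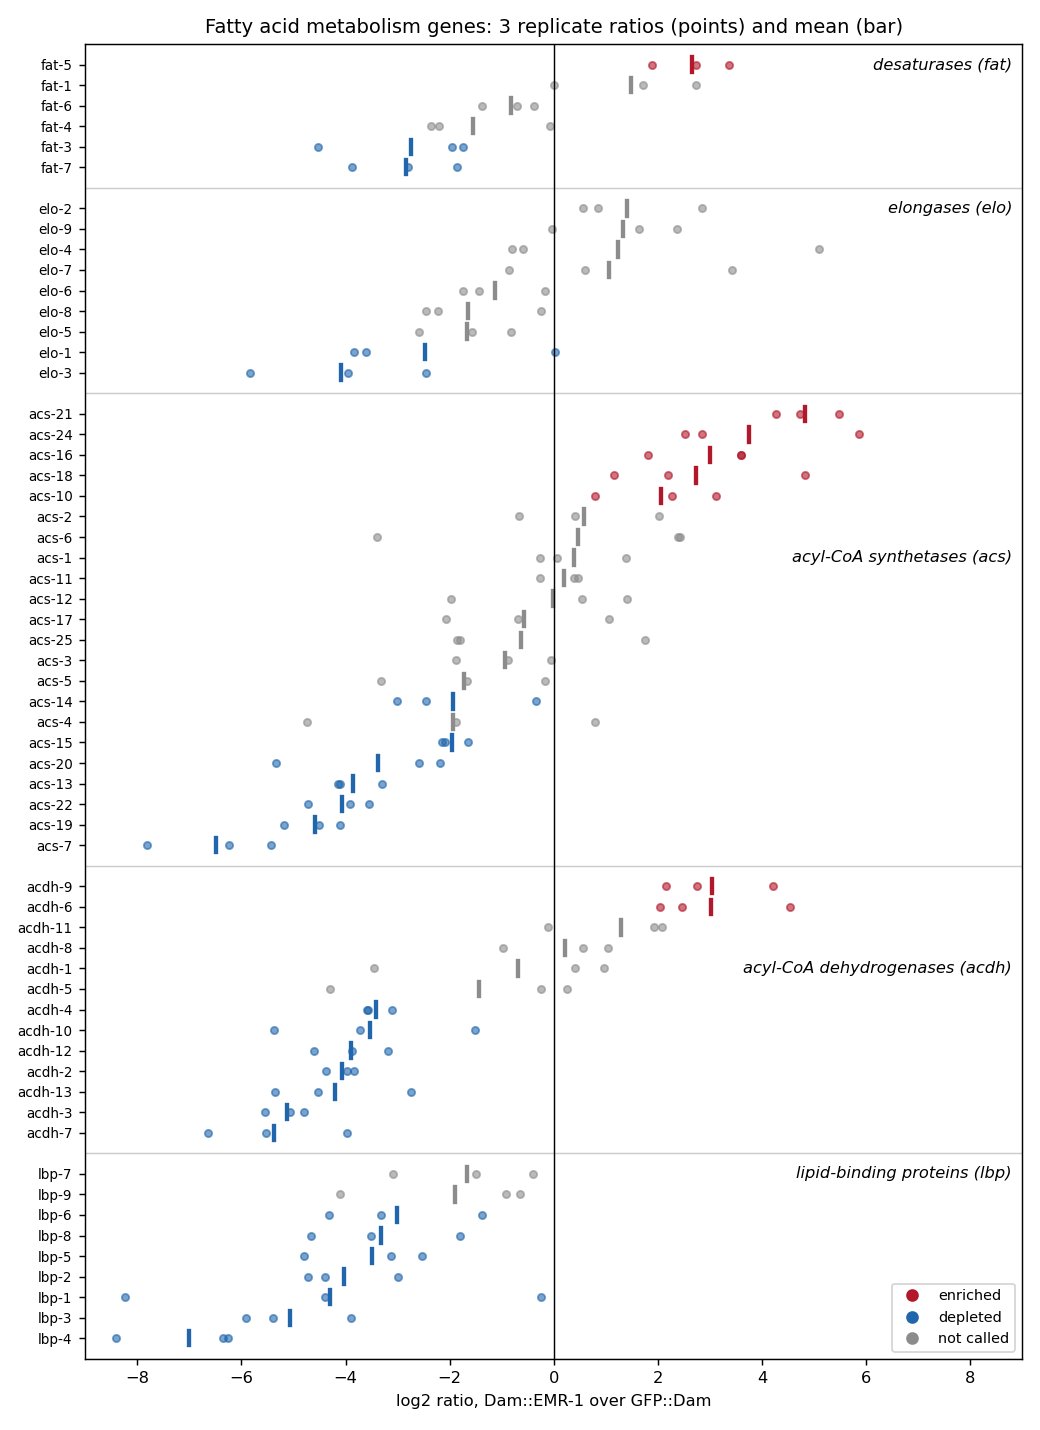
Log2 ratio of Dam::EMR-1 over GFP::Dam (x axis) for the 59 tested fatty acid genes (rows), grouped by family and sorted by mean. Points are the 3 replicate ratios and bars their mean, in red for the 8 enriched, blue for the 25 depleted and grey for the 26 genes not called; all 9 lipid-binding protein genes lie left of 0.

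Desaturases place double bonds in fatty acids, and fat-5, fat-6 and fat-7 make monounsaturated fatty acids. At fat-5 (chromosome V, 17725004 to 17726818), which acts on palmitate, the Dam::EMR-1 libraries held 14.7, 5.15 and 11.5 RPM and the GFP::Dam libraries 0, 0.737 and 0.0572. Every Dam::EMR-1 library was above every GFP::Dam library. The log2 ratios of fat-5 were 2.74, 1.88 and 3.37, a mean of 2.66 ± 0.75 (limma adjusted p = 0.019). Of the stearate desaturases, fat-7 (chromosome V, 7151353 to 7153146) was depleted at -2.84 ± 1.01 (limma adjusted p = 0.0065). Its library levels overlapped between the groups, and DESeq2 did not call fat-7 (adjusted p = 0.061). Its paralogue fat-6 was not called, at -0.82 ± 0.51 (limma adjusted p = 0.20). The difference between fat-6 and fat-7 was 3.50, 1.41 and 1.15 in the 3 replicates, a mean of 2.02 ± 1.29. That difference had an exact two-sided sign-flip p of 0.25, the smallest that 3 pairs can give, and 0.75 after adjustment over 6 paralogue pairs. How reads that match both of these similar genes were treated could not be found in the sources used here.

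The polyunsaturated branch is made by fat-1, fat-3 and fat-4, which encode the omega-3 desaturase and the front-end desaturases that lead to arachidonic and eicosapentaenoic acid. The neighbours fat-3 and fat-4 lie 801 bp apart on chromosome IV and share no GATC site. The ratio of fat-3 was -2.75 ± 1.55, a depletion (limma adjusted p = 0.018), and that of fat-4 was -1.55 ± 1.27 (limma adjusted p = 0.13). At both genes the library levels of the groups overlapped. DESeq2 called fat-4 (adjusted p = 0.042) and not fat-3 (0.12). The fat-3 minus fat-4 difference of -1.2 ± 1.27 did not keep 1 sign over the replicates (exact sign-flip p = 0.50, adjusted 0.75). At fat-1 the ratios were 2.72, 1.71 and 0.00, a mean of 1.48 ± 1.37 (limma adjusted p = 0.10). The fat-1 reads were higher in all 3 Dam::EMR-1 libraries, at 150.3, 77.0 and 13.2 RPM, than in the GFP::Dam libraries at 0.399, 1.54 and 9.5. The gene fat-1 was called enriched by DESeq2 (adjusted p = 0.0014) and not by limma or edgeR. Thus fat-1 and fat-2, which lie 5061 bp apart, both had more reads in every Dam::EMR-1 library, and fat-2 was not tested. None of the 3 called desaturases passed edgeR's quasi-likelihood test on recovered reads with or without the replicate block, and adjusted p was 0.11 for fat-5, 0.31 for fat-3 and 0.23 for fat-7 with it. The limma call of fat-5 also ended without replicate 1 (adjusted p = 0.066) or 3 (0.096), and that of fat-3 without replicate 2 (0.13).

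Elongases add carbon units to acyl chains. The depleted elongases were elo-3 and elo-1, and the ratios of the other 7 lay between -1.66 and 1.41 without a call. At elo-3 (chromosome IV, 7237718 to 7240488) the Dam::EMR-1 libraries held 26.0, 9.22 and 0.115 RPM and the GFP::Dam libraries 39.9, 60.9 and 49.3. All 3 GFP::Dam libraries were higher, while the Dam::EMR-1 libraries were spread widely. The log2 ratios of elo-3 were -2.45, -3.95 and -5.84, a mean of -4.08 ± 1.70 (limma adjusted p = 0.0017). The polyunsaturated fatty acid elongase elo-1 had -3.84 and -3.61 in replicates 1 and 2 but 0.02 in replicate 3, a mean of -2.48 ± 2.16 (limma adjusted p = 0.025). The neighbouring elongase elo-7, 1596 bp from elo-1, had a mean of 1.05 ± 2.18 and was not called (limma adjusted p = 0.34). The pair elo-5 and elo-6, which serve the synthesis of branched-chain fatty acids, lies 9511 bp apart on chromosome IV. The elo-5 ratio was -1.66 ± 0.89 and the elo-6 ratio -1.12 ± 0.83, and their difference of -0.54 ± 1.27 changed sign between replicates (exact sign-flip p = 0.50, adjusted 0.75). DESeq2 called elo-5 depleted (adjusted p = 0.017). Both elongase calls ended in edgeR with the replicate block, at an adjusted p of 0.12 for elo-3 and 0.31 for elo-1. The elo-1 call ended in limma without replicate 1 (adjusted p = 0.14) or 2 (0.14).

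Acyl-CoA synthetases activate free fatty acids by joining them to coenzyme A, the entry step for both synthesis and breakdown. The highest ratio of all 59 genes was that of acs-21 (chromosome V, 3089068 to 3091352). Its Dam::EMR-1 libraries held 31.1, 69.8 and 55.1 RPM and its GFP::Dam libraries 1.2, 0.43 and 2.35, so the groups lay far apart. The log2 ratios were 4.27, 5.47 and 4.73, a mean of 4.82 ± 0.61 (limma adjusted p = 0.0004), and all 5 of its sites were above 0. At acs-16 (chromosome I, 1471075 to 1479923), a long gene with 23 sites, the Dam::EMR-1 libraries held 153, 223 and 65.7 RPM and the GFP::Dam libraries 16.1, 4.85 and 4.29. Again no library of one group reached the other. The acs-16 ratios were 3.59, 3.59 and 1.81, a mean of 3.00 ± 1.03 (limma adjusted p = 0.0027), with every site above 0.

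At acs-24 (chromosome I, 3774634 to 3777468) replicate 1 stood out: the Dam::EMR-1 libraries held 276, 22.9 and 51.6 RPM and the GFP::Dam libraries 6.22, 0.0614 and 7.1. The groups did not overlap, and the ratios were 5.85, 2.84 and 2.53, a mean of 3.74 ± 1.84 (limma adjusted p = 0.0022). At acs-18 (chromosome IV, 10310748 to 10313665) the corresponding levels were 77.3, 72.9 and 18.6 against 1.71, 5.34 and 15.6. The lowest Dam::EMR-1 library lay just above the highest GFP::Dam library. The acs-18 ratios were 4.83, 2.19 and 1.15, a mean of 2.72 ± 1.90 (limma adjusted p = 0.018). The groups overlapped at acs-10 (chromosome V, 14146499 to 14148839), with 479, 205 and 124 RPM in Dam::EMR-1 and 174, 74.1 and 162 in GFP::Dam. Its ratios were 3.11, 2.27 and 0.80, a mean of 2.06 ± 1.17 (limma adjusted p = 0.010), and its summed reads gave only 0.14 in edgeR with the replicate block (adjusted p = 0.89).

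The lowest synthetase was acs-7 (chromosome II, 9292017 to 9294033), which takes part in the assembly of ascaroside pheromones. The Dam::EMR-1 libraries held 0.0446, 0.127 and 2.71 RPM there, and the GFP::Dam libraries 83.0, 62.0 and 41.8. The groups were far apart, with Dam::EMR-1 close to 0. The acs-7 ratios were -7.81, -6.25 and -5.43, a mean of -6.50 ± 1.21 (limma adjusted p = 0.00011). At acs-19 (chromosome III, 3864489 to 3867098), an acetyl-CoA synthetase homologue, Dam::EMR-1 held 0.0446, 0.191 and 0.115 RPM and GFP::Dam 47.2, 37.4 and 44.3. Both groups were tight and did not overlap. Its ratios of -5.18, -4.10 and -4.50 gave a mean of -4.60 ± 0.54 (limma adjusted p = 0.00061).

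The gene with the most reads, acs-22 (chromosome X, 8931179 to 8939263), encodes a fatty acid transport protein homologue needed for the surface barrier of the worm. It was depleted at -4.06 ± 0.60 (limma adjusted p = 9.9e-05), with 15.9, 13.9 and 67.7 RPM in Dam::EMR-1 against 569, 629 and 512 in GFP::Dam. Every GFP::Dam library thus lay far above every Dam::EMR-1 library. Its paralogue acs-20, of the same transport protein family, was depleted at -3.37 ± 1.72 (limma adjusted p = 0.010), although 1 of its 4 sites held 82.8% of its reads. The acs-20 minus acs-22 difference was 0.69 ± 2.0 (exact sign-flip p = 0.75, adjusted 0.90). The other depleted synthetases were acs-13 at -3.85 ± 0.48 (limma adjusted p = 0.00033), acs-15 at -1.96 ± 0.27 (0.039) and acs-14 at -1.93 ± 1.41 (0.049). The 10 synthetases without a call, among them acs-1 of branched-chain fatty acid metabolism and the fasting-induced acs-2, ranged from -1.94 to 0.58.

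Of the 12 called synthetases, acs-16, acs-21, acs-7, acs-13, acs-19, acs-20 and acs-22 also passed edgeR's quasi-likelihood test with and without the replicate block. Adjusted p without the block was 0.080 for acs-24, and with it 0.23 for acs-18, 0.097 for acs-14 and 0.16 for acs-15. In limma, leaving out replicate 1 ended the calls of acs-18 (adjusted p = 0.14), acs-10 (0.056), acs-14 (0.16) and acs-15 (0.083), leaving out replicate 2 those of acs-14 (0.23) and acs-15 (0.12), and leaving out replicate 3 those of acs-15 (0.12) and acs-20 (0.084).

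Acyl-CoA dehydrogenases carry out the first oxidation step of mitochondrial β-oxidation and of related breakdown routes. The lowest of them was acdh-7. Both acdh-7 and its neighbour acdh-10 are homologues of medium-chain dehydrogenases, and they lie 114 bp apart on chromosome X and share 3 GATC sites, so their values are not independent. At acdh-7 (17215018 to 17217105) the Dam::EMR-1 libraries held 20.1, 0.318 and 9.39 RPM and the GFP::Dam libraries 394, 421 and 304. The groups were far apart, with GFP::Dam high in all 3 libraries. The acdh-7 ratios were -5.53, -6.63 and -3.96, a mean of -5.37 ± 1.34 (limma adjusted p = 8.4e-05), and all 12 sites were below 0. At acdh-10 the mean was -3.54 ± 1.94 (limma adjusted p = 0.0044), and the libraries overlapped because Dam::EMR-1 replicate 1 held 67.3 RPM against 48.8, 73.4 and 64.8 in GFP::Dam.

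At acdh-3 (chromosome I, 6464197 to 6465709) the Dam::EMR-1 libraries held 0.0446, 0 and 0.0576 RPM and the GFP::Dam libraries 14.5, 10.9 and 36.5. Dam::EMR-1 was almost without reads, and the ratios of -5.06, -4.79 and -5.55 were close together, with a mean of -5.13 ± 0.39 (limma adjusted p = 0.00045). The acdh-3 window also reaches into knl-2, a kinetochore gene. At acdh-13 (chromosome IV, 8496485 to 8498823) the levels were 18.0, 3.63 and 110.3 in Dam::EMR-1 and 165, 229 and 209 in GFP::Dam. All GFP::Dam libraries were higher, with Dam::EMR-1 replicate 3 the nearest to them. The acdh-13 ratios were -4.52, -5.35 and -2.74, a mean of -4.20 ± 1.34 (limma adjusted p = 0.00042). At acdh-2 (chromosome II, 5544778 to 5547492) the levels were 1.52, 2.04 and 1.33 against 27.0, 86.4 and 34.9. The Dam::EMR-1 libraries were low and alike, and the ratios of -3.98, -4.38 and -3.85 had a mean of -4.07 ± 0.28 (limma adjusted p = 0.001). The remaining depleted dehydrogenases were acdh-12, a homologue of very long-chain dehydrogenases, at -3.89 ± 0.71 (limma adjusted p = 0.0028) and acdh-4 at -3.42 ± 0.27 (0.0017).

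Enrichment among the dehydrogenases was seen at acdh-9 and acdh-6. At acdh-9 (chromosome II, 846864 to 848603) the Dam::EMR-1 libraries held 489, 177 and 169 RPM and the GFP::Dam libraries 61.3, 105 and 75.6. The groups did not overlap, although both were high. The acdh-9 ratios were 4.21, 2.75 and 2.15, a mean of 3.03 ± 1.06 (limma adjusted p = 0.0012), while its summed reads gave 0.91 in edgeR with the replicate block (adjusted p = 0.39). At acdh-6 (chromosome III, 8561136 to 8563026) the levels were 105, 52.3 and 23.6 against 1.25, 2.83 and 4.06. Every Dam::EMR-1 library was higher, and the ratios of 4.53, 2.03 and 2.46 had a mean of 3.01 ± 1.34 (limma adjusted p = 0.0041). The 4 dehydrogenases without a call ranged from -1.43 to 1.29 and included acdh-1, of the propionate shunt, and acdh-11. The calls of acdh-2, acdh-3, acdh-4, acdh-7 and acdh-12 held in edgeR with and without the block, while with the block adjusted p was 0.078 for acdh-6, 0.15 for acdh-10 and 0.057 for acdh-13.

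Lipid-binding proteins carry fatty acids within cells or, for members with a secretion signal such as LBP-1, LBP-2 and LBP-3, outside them. All 9 genes had a ratio below 0, and 7 were depleted. The lowest ratio of all 59 fatty acid genes was that of lbp-4 (chromosome V, 7820578 to 7821477). Its Dam::EMR-1 libraries held 0.0446, 1.91 and 2.77 RPM and its GFP::Dam libraries 138, 56.4 and 109.5. No Dam::EMR-1 library came near the GFP::Dam libraries. The lbp-4 ratios were -8.40, -6.25 and -6.36, a mean of -7.0 ± 1.21 (limma adjusted p = 4.9e-05), with all 6 sites below 0.

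On chromosome X lbp-3, lbp-1 and lbp-2 lie side by side with gaps of 986 and 797 bp. At lbp-3 (3257010 to 3258155) the Dam::EMR-1 libraries held 2.14, 53.3 and 57.1 RPM and the GFP::Dam libraries 240.5, 239 and 209. The GFP::Dam libraries were alike and all higher. The lbp-3 ratios were -5.92, -5.39 and -3.90, a mean of -5.07 ± 1.05 (limma adjusted p = 0.0001). At lbp-1 (3259142 to 3259812), with 2 sites, the levels were 0.491, 26.3 and 0 in Dam::EMR-1 against 25.0, 24.1 and 30.9. The groups overlapped because Dam::EMR-1 replicate 2 was as high as the controls. The lbp-1 ratios were accordingly far apart at -4.40, -0.25 and -8.24, a mean of -4.30 ± 4.0 (limma adjusted p = 0.015). At lbp-2 the mean was -4.04 ± 0.93 (limma adjusted p = 0.0015), and the lbp-1 minus lbp-2 difference was -0.26 ± 3.96 (exact sign-flip p = 1.0).

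The intracellular carriers lbp-5 and lbp-6, 1890 bp apart on chromosome I, were depleted at -3.49 ± 1.18 (limma adjusted p = 0.005) and -3.01 ± 1.49 (0.0057). The lbp-6 groups overlapped, since Dam::EMR-1 replicate 3 held 135 RPM against 0.312 and 0 in the other replicates. On chromosome V lbp-8, whose product carries a lipid signal from the lysosome to the nucleus, was depleted at -3.33 ± 1.43 (limma adjusted p = 0.01). Its neighbour lbp-7, 10465 bp away, had -1.67 ± 1.35 (limma adjusted p = 0.16) on 2 sites, and lbp-9 had -1.89 ± 1.92 (0.12). At the lbp-7 site with recovered reads all 3 Dam::EMR-1 libraries held 0. The lbp-7 ratio was above that of lbp-8 in all 3 replicates, by 1.66 ± 1.39 (exact sign-flip p = 0.25, the smallest possible, adjusted 0.75). Of the 7 depleted genes lbp-4 held its call in edgeR with and without the block. With the block edgeR's adjusted p was 0.051 for lbp-3, 0.11 for lbp-2 and lbp-6, 0.13 for lbp-1 and 0.15 for lbp-8. Without it edgeR's adjusted p was 0.066 for lbp-5, 0.11 for lbp-2, 0.12 for lbp-8, 0.33 for lbp-1 and 0.71 for lbp-6. The edgeR log2 ratio of lbp-6 was -7.18 with the block and -1.07 without it. In limma the lbp-1 call ended without replicate 1 (adjusted p = 0.062) or 3 (0.12), and the lbp-8 call without replicate 2 (0.065).

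Set library by library, the reads of the fatty acid genes split in the same direction as the ratios. In 19 of the 59 genes (32.2%, background 25.2%) every GFP::Dam library was above every Dam::EMR-1 library. In 11 genes (18.6%, background 36.4%) every Dam::EMR-1 library was higher, and in 29 the groups overlapped. For each of the 30 genes without overlap the exact two-sided permutation p was 0.1, the smallest that 3 against 3 libraries can give. The median level over the fatty acid genes was 13 RPM in Dam::EMR-1 and 20.6 in GFP::Dam, whereas over all tested genes it was 13.95 and 7.51. On these medians the fatty acid genes were close to all genes in Dam::EMR-1 and above them in GFP::Dam. Each level is a sum over a gene's sites, however, and the median number of sites was 7 for fatty acid genes and 6 for all tested genes. The levels of the lists are therefore not strictly alike. These levels use sites at which the reads of each library could be recovered, 444 of the 494.

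**Figure D2:**
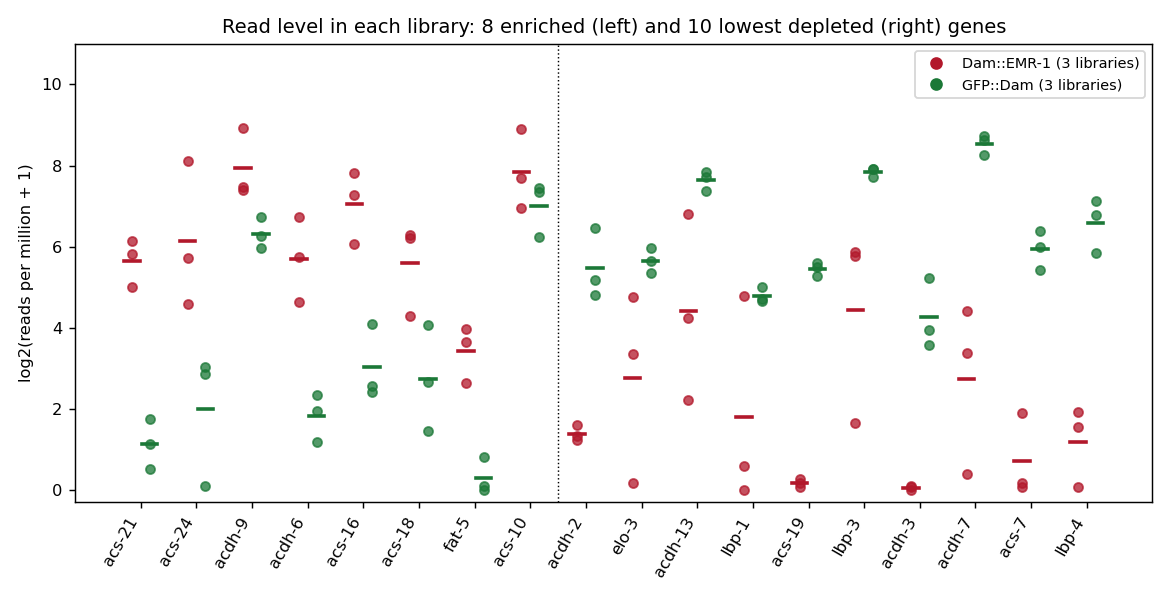
Reads in each library, as log2(RPM + 1) on the y axis, for the 8 enriched genes (left of the dotted line) and the 10 depleted genes with the lowest ratios (right). Points are 3 Dam::EMR-1 (red) and 3 GFP::Dam (green) libraries with short bars at their means; the groups overlap at acs-10 and lbp-1.

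The calls differed with chromosome position. In worm nuclei the outer parts of the autosomes are known to touch the periphery more than their centres do. Each chromosome was cut into 3 equal segments. The middle segments of autosomes held 26 fatty acid genes, of which 15 (57.7%) were depleted and 2 enriched, beside 38.4% and 17.9% of all genes there. The outer segments also held 26, of which 4 (15.4%) were depleted and 6 (23.1%) enriched, beside 20.4% and 40.6% of all genes. Median log2 ratios were -2.61 for fatty acid genes and -1.14 for all genes in the middle segments, and 0.29 and 1.33 in the outer segments. The enriched genes in middle segments were acdh-6 and acs-18, and the depleted genes in outer segments were acs-13, acs-15, acs-19 and acs-20. Over the whole list, 41 of 59 genes lay below the median of all genes of their own segment, and the median distance was -1.82.

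On chromosome X, 6 of 7 fatty acid genes (85.7%) were depleted, beside 25.7% of all X genes, with medians of -4.06 and -0.00. These 6 genes fill few separate places, since lbp-1, lbp-2 and lbp-3 are neighbours and acdh-7 and acdh-10 share sites, which leaves acs-22 as the only depleted X gene on its own. The X gene that was not called was acs-17, at -0.57 ± 1.57.

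**Figure D3:**
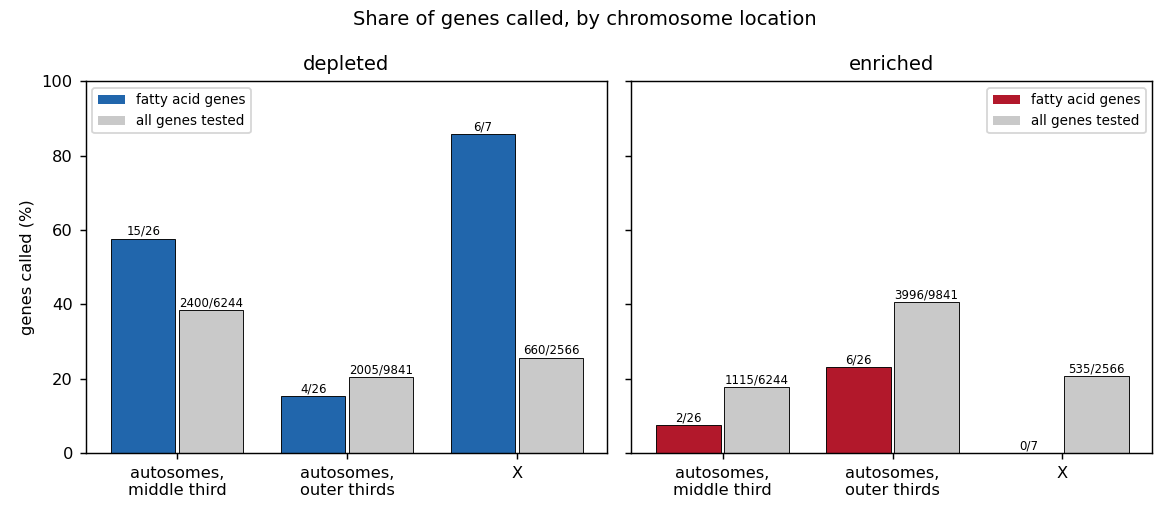
Percent of genes called (y axis, from 0) as depleted (left panel) and enriched (right panel) in the middle and outer parts of autosomes and on X, for fatty acid genes (coloured) and all genes tested (grey), with counts above the bars. The depleted share of fatty acid genes is 57.7% in the middle parts and 85.7% on X, and 15.4% in the outer parts.

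Depleted genes often sat in low surroundings, but several were low on their own. The flank of a gene was taken as the GATC sites 0.5 to 10 kb from it. Of the 25 depleted genes 22 had a flank below 0, with a median flank ratio of -2.20, and 24 lay below their own flank. Among all depleted genes of the genome the median flank was -2.42 and 80.9% lay below theirs. Of the 8 enriched genes 7 had a flank above 0, with a median of 1.77, and 2 lay below their flank. Among all enriched genes the median flank was 2.71 and 23.6% lay below theirs, so the enriched fatty acid genes were close to the genome in this share. Over the 59 genes, which share libraries and in part their surroundings, Pearson's r between gene and flank was 0.66 and Spearman's rho 0.63, beside 0.76 and 0.77 over all genes. Gene and flank had the same sign in 72.9% of the fatty acid genes and 80.3% of all genes, and 67.8% of the fatty acid genes were below their flank, beside 47.8% of all genes.

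Among depleted genes the lowest flank ratios were those of acs-7, acs-19 and lbp-4, at values of -5.59 ± 0.43, -5.34 ± 0.58 and -5.0 ± 0.51. By contrast acs-22 had a flank of 1.00 ± 0.98 and acdh-13 one of 0.38 ± 1.07, so at both the gene window was low in surroundings that were not. The third depleted gene with a flank above 0 was acs-14, at 1.25 ± 0.73. The flanks of acdh-2, acs-13 and acdh-12 were also near 0, at -0.40 ± 0.53, -0.43 ± 0.96 and -0.63 ± 0.86. Among the enriched genes acdh-9 lay in the highest surroundings, with a flank of 4.68 ± 0.76, above the ratio of the gene itself. The flank of acs-21 was 3.17 ± 0.45 and that of fat-5 3.10 ± 0.92. The enriched acs-10 was the exception with a flank below 0, at -1.1 ± 0.75. Uncalled genes could also differ from their flanks: acs-12 had -0.01 ± 1.76 in a flank of 5.01 ± 0.56.

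**Figure D4:**
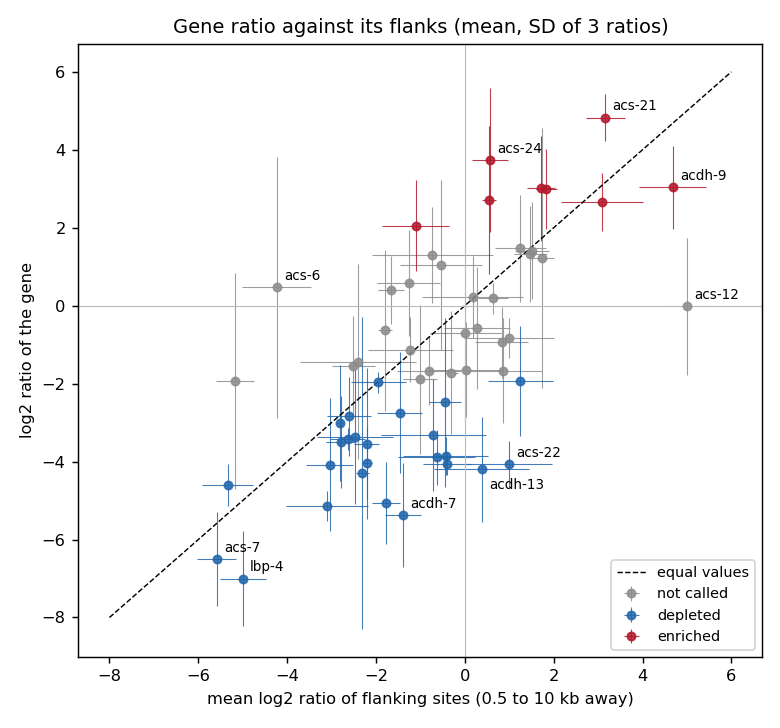
Mean log2 ratio of each of the 59 genes (y axis) against that of the sites 0.5 to 10 kb away (x axis), with bars of ±1 SD over 3 replicate ratios and a dashed line of equal values. The depleted genes acs-22 and acdh-13 lie right of 0 and far below the line, and acs-7 and lbp-4 lie at the lower left.

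The sites within a gene were counted by sign. All sites were below 0 in 19 of the 25 depleted genes and all were above 0 in 5 of the 8 enriched genes, which were called on the mean of these same sites. Of the 26 genes without a call only 4 had sites of a single sign, namely acdh-11, elo-4, lbp-7 and lbp-9. Site signs were not counted over all tested genes, so these counts have no background. Reads were uneven, and in 8 genes 1 site held more than 50% of them. In 38 of the 59 genes the window also reached into another protein-coding gene, so the value belongs to the locus and not to the fatty acid gene alone.

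In the authors' deposited table of 10-kb bins, 29 of the 59 genes lay in bins below 0 at the authors' adjusted p of 0.05 and 10 in bins above 0, beside 29.6% and 31.7% of all bins. The former count genes and the latter bins, so the shares are not strictly alike. Some genes also share a bin, namely lbp-1 and lbp-3, acdh-7 and acdh-10, and fat-3 and fat-4. Of the 25 depleted genes 20 were in such low bins, and of the 8 enriched genes 7 were in such high bins. The acs-22 bin had an average log2 ratio of -5.03 in the authors' deposited table. The acs-10 bin had -0.11 there, with an adjusted p of 0.71 in the authors' deposited table. These bins rest on the same libraries and are not an independent measurement.

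**Figure D5:**
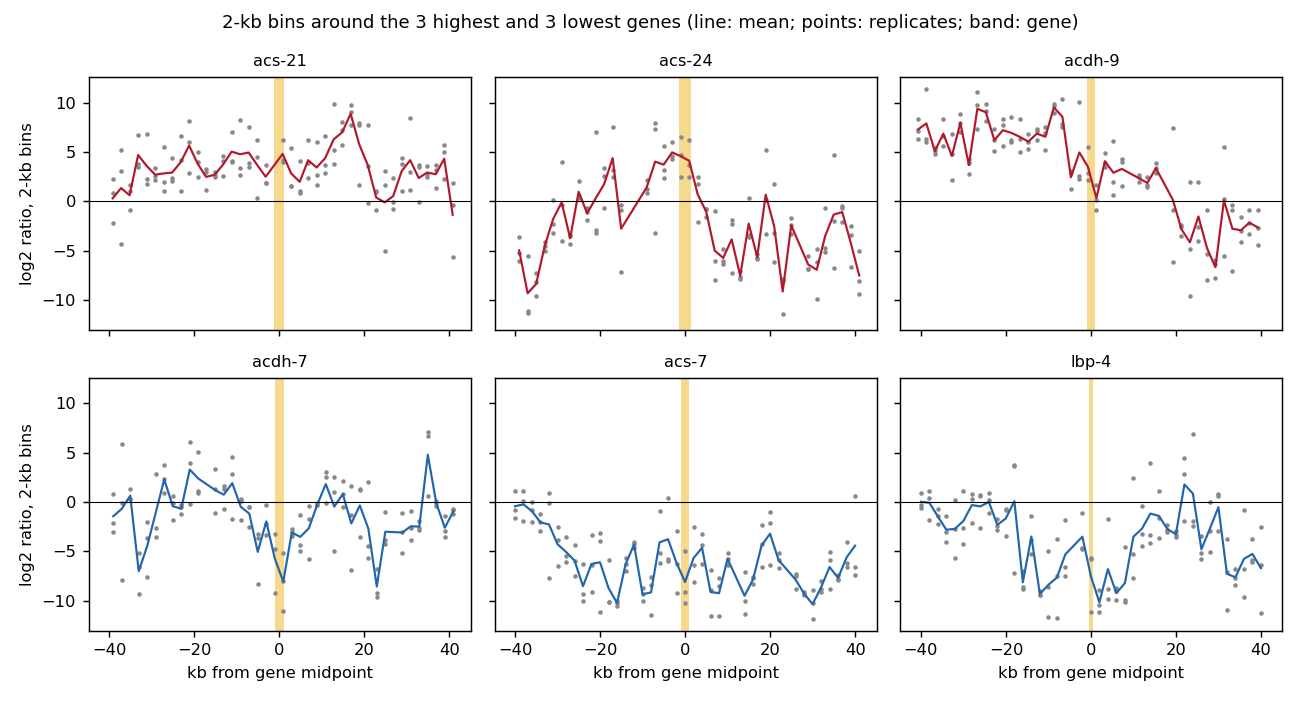
Log2 ratio in 2-kb bins (y axis) against distance from the gene midpoint in kb (x axis) for acs-21, acs-24 and acdh-9 (red) and acdh-7, acs-7 and lbp-4 (blue). Grey points are the 3 replicates, lines their mean and the shaded band the gene; acs-21 sits in bins that are mostly above 0 and acs-7 in bins below 0 over the whole span, while bins below 0 lie on both sides of acs-24 and on one side of acdh-9.

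Other genes of fatty acid metabolism, listed by role, showed both directions. Of 50 such genes 49 were tested, all but hpo-8, and 22 (44.9%, background 27.2%) were depleted and 14 (28.6%, background 30.3%) enriched, with a median log2 ratio of -1.27. The enriched share was close to the background, and the counts by role below are read against the same 2 percentages. In synthesis, fasn-1, the fatty acid synthase, was enriched at 1.58 ± 1.23 (limma adjusted p = 0.026), whereas art-1, an enoyl-CoA reductase of elongation, was depleted at -5.65 ± 0.31 (0.00063). The art-1 value rests on 1 site with 115 reads. Every Dam::EMR-1 library held 0 RPM there, and the GFP::Dam libraries held 2.28, 1.90 and 2.52. The size of its ratio is thus limited by the 1 read added to each count. The acetyl-CoA carboxylase gene pod-2 was depleted at -1.42 ± 0.34 (limma adjusted p = 0.045). Among 8 regulators 2 were enriched: sbp-1, the SREBP homologue, at 3.26 ± 1.00 (limma adjusted p = 0.00096) and the nuclear receptor nhr-80 at 2.24 ± 1.17 (0.041). Another 4 regulators were depleted, led by the nuclear receptor nhr-66 at -4.90 ± 0.58 (limma adjusted p = 2.5e-05) and the Mediator subunit mdt-15 at -3.93 ± 1.45 (0.0014).

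All 7 mitochondrial β-oxidation genes were called, 4 depleted and 3 enriched. They included ech-6 at -5.64 ± 0.31 (limma adjusted p = 0.00012), ech-1.2 at -5.39 ± 1.41 (0.00023), ech-7 at 3.77 ± 1.96 (0.0029) and ech-1.1 at 2.03 ± 1.05 (0.043), all of the enoyl-CoA hydratase family. The remaining enriched gene, hacd-1, had 2.72 ± 3.29 and passed narrowly (limma adjusted p = 0.048). The hacd-1 ratios were 2.16, 6.26 and -0.24, so the ratio in replicate 3 was below 0. Of 6 carnitine palmitoyltransferase genes, which serve the shuttle into mitochondria, 3 were depleted and 1 enriched. The depleted ones included cpt-2 at -4.86 ± 0.20 (limma adjusted p = 0.00022) and cpt-6 at -4.14 ± 0.97 (0.00044), and the enriched one was cpt-3 at 2.98 ± 2.10 (0.018). The 13 peroxisomal genes divided into 5 depleted and 5 enriched. The peroxisome assembly gene prx-10 stood at -5.50 ± 0.72 (limma adjusted p = 0.00017) and dhs-28, a β-oxidation dehydrogenase, at -4.87 ± 1.94 (0.00058). On the other side were pmp-4, a peroxisomal transporter, at 3.43 ± 0.40 (limma adjusted p = 0.00076) and the acyl-CoA oxidase acox-1.3 at 3.23 ± 0.58 (0.001). The enriched acox-1.2, acox-1.3 and acox-1.4 are neighbours on chromosome I with overlapping windows.

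Of 11 genes of fat storage and lipolysis, 4 were depleted and 2 enriched. The acyltransferase gene mboa-2 had the lowest ratio of the whole list, -7.44 ± 0.79 (limma adjusted p = 1.2e-05), and the lipase gene atgl-1 had -3.97 ± 1.14 (0.0022). The lysosomal-type lipase gene lipl-3 had the highest, 6.07 ± 1.35 (limma adjusted p = 6.3e-05), and lipl-5 had 2.59 ± 2.91 (0.037). The ended calls listed next do not cover hacd-1, acox-1.2 or acox-1.4, whose calls under the alternatives are not given. In edgeR with the replicate block the calls of fasn-1, pod-2, nhr-80, sbp-1, cpt-3, cpt-6, ech-7, ech-1.1, acox-1.3, atgl-1 and lipl-5 ended. Without the block those of fasn-1, pod-2, nhr-80, cpt-6, ech-7, ech-1.1, acox-1.3 and atgl-1 ended. DESeq2 did not call fasn-1 (adjusted p = 0.33), pod-2 (0.29), nhr-80 (0.41), ech-7 (0.12) or ech-1.1 (0.078). With the gene body alone limma did not call pod-2, nhr-80, lipl-5 or ech-1.1. The limma call of pod-2 also ended with a pseudocount of 5 or total-read scaling, and that of lipl-5 with a pseudocount of 0.1. In limma, leaving out replicate 1 ended the calls of fasn-1 (adjusted p = 0.14), pod-2 (0.075), nhr-80 (0.13), cpt-3 (0.15), lipl-5 (0.28) and ech-1.1 (0.23). Leaving out replicate 2 ended those of pod-2 (limma adjusted p = 0.12), nhr-80 (0.18) and ech-1.1 (0.093), and leaving out replicate 3 those of fasn-1 (0.10), pod-2 (0.18), lipl-5 (0.13) and ech-1.1 (0.056).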

How the data were processed

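Dam-adapted genomic DNA from embryos was sequenced in 6 libraries, grouped and numbered by their titles. Per the submitters' processing notes the build is ce11, and DESeq2 is listed without a role. For the aligner, the handling of multiply mapped reads and the making of the ratios, the entry is: not given in the sources used here. Per the file headers, the deposited tables give, for GATC sites and for bins, 3 log2 ratios by replicate number, a raw read count over all libraries, an averaged log2 ratio and an adjusted p-value, all from the authors. From the values, each ratio adds 1 read to both libraries of a number and subtracts a constant per column. No site has fewer than 10 reads. Whole reads per library were recovered from ratio and sum (tolerance 4e-12 in log2), with 1 solution at 90.2% of sites, which hold 94.8% of reads. No per-sample column was left unused (0).

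Genes came from a RefSeq table of WBcel235 without strand, exons or sequences. Ratios were tested with limma 3.58.1 (R 4.3.3), intercept only, variance trend on log2 reads, robust, two-sided, Benjamini-Hochberg over 18651 genes, and the step was tested on simulated data. edgeR 4.0.16 and DESeq2 1.42.0 on recovered reads were alternatives. PCR copies cannot be told from independent molecules, so counting error is understated. By rule, replicate values are given for the 10 highest and 10 lowest called members (8 were enriched); those of fat-1, fat-2, elo-1 and single libraries of other members were added after their values were seen. All fat and lbp genes and all called members are given with mean and SD, as are up to 2 pathway genes per role and direction by smallest adjusted p, and emr-1 and med-1 as loci the constructs may carry. Other genes were named after their values were seen. The members and lists were chosen with earlier results of these data known.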

Additional observations from a re-analysis of the deposited data

How the results depend on the processing

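Over the alternatives run, 12 of the 33 called fatty acid genes kept their call under every one, and none of the 33 changed sign: acs-7, acs-13, acs-16, acs-19, acs-21, acs-22, acdh-2, acdh-3, acdh-4, acdh-7, acdh-12 and lbp-4. edgeR on summed reads called 3 fatty acid genes enriched and 12 depleted with the replicate block (all genes 2107 and 2656, or 11.3% and 14.3%) and 3 and 12 without it (3166 and 3143, or 17.0% and 16.9%), and 13 of the 33 were called in both. DESeq2 called 8 and 25 (27.3% and 29.5% of all genes), losing acdh-9, acs-10, elo-1, fat-3 and fat-7 and gaining fat-1, acs-6, fat-4, elo-5 and acs-4. In limma acs-14 lost its call with no read minimum, a pseudocount of 0.1 or total-read scaling, acs-15 with the last, the gene body alone, a pseudocount of 5 or no block, and elo-1 with the body alone or a pseudocount of 5. Calls were also gained by limma for elo-2 with total-read scaling, lbp-7 with a pseudocount of 0.1, acs-4 without replicate 1, and acs-5 with a pseudocount of 5 or 0.1, at sites with 1 solution only, without replicate 3 and without the block. At an adjusted p of 0.01, limma kept 25 of the 33. Deviations of same-numbered libraries from their group means correlated at -0.05, -0.06 and -0.03, so no shared effect of replicate number was seen. These values cannot show whether same-numbered libraries were prepared together. The median ratio of the fatty acid genes was -1.4 with total-read scaling, which raised ratios by 0.26 on average, -1.55 at sites with 1 solution only (chosen after seeing the data) and without the replicate block in limma, -0.87 and -2.75 with pseudocounts of 5 and 0.1, -2.16 and -1.39 in edgeR with and without the block, and -2.22 in DESeq2. Without single replicates it ranged from -1.71 to -1.4, with 5 to 8 enriched and 20 to 23 depleted; the 5 enriched came without replicate 1. Signs turned at genes that were not called: elo-2 at -0.79, -0.77 and -0.83, acs-1 at -1.3, -1.55 and -1.34 and acdh-8 at -0.13, -0.87 and -0.16 in edgeR with block, without it and DESeq2, fat-4 at 1.34 in edgeR without the block, acs-1 at -0.020 with a pseudocount of 5, acs-6 at -0.42, acs-11 at -0.14 and acs-12 at 0.77 with 0.1, and acs-12 at 0.25 with total-read scaling. Without single replicates elo-4 ranged from -0.70 to 2.25, elo-7 from -0.13 to 2.01, acs-2 from -0.13 to 1.21, acs-6 from -0.51 to 2.4, acs-1 from -0.098 to 0.72, acdh-8 from -0.20 to 0.80, acs-12 from -0.72 to 0.97, acs-17 from -1.38 to 0.18, acdh-1 from -1.53 to 0.68 and emr-1 from -0.62 to 0.55. The emr-1 locus, also not called, was at 0.12 with total-read scaling, 0.30 at sites with 1 solution and without the block in limma, 0.35 and 0.18 with pseudocounts of 5 and 0.1, 1.6 and 0.64 in edgeR with and without the block and 1.56 in DESeq2. The cause was not tested. The window of 500 bp on each side of the gene start was not run, since the gene table gives no strand.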
